A study of Drosophila melanogaster with 2 samples.

Results

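The regions described here are 439 sites between annotated genes that were among the 5000 strongest ChIP-seq peaks of the CG4282 protein in Drosophila melanogaster embryos. The members were chosen by the deposited signal of the pooled peak list, the authors' own enrichment value of each peak. The pooled list of 30000 peaks and background regions was ranked by signal and its highest 5000 were kept. A member was one of these whose summit, the position of its highest signal, lay outside every annotated gene body and more than 500 bp from every transcription start site (TSS). Annotated transposable elements were not counted as genes. The 439 members made up 8.78% of the 5000 (Wilson 95% interval, 8.03 to 9.60). Of the others, 2873 summits were no more than 500 bp away from a TSS (strong promoter peaks), 1256 lay in introns, and 432 lay in exons away from a TSS. Among the 25000 weaker pooled peaks, 3280, or 13.1%, met the same rule on position and are called weak intergenic peaks.

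Embryos of both sexes came from a transgenic line, strain CG4282-GFP, in which the CG4282 protein carried GFP at its C terminus, and were collected whole at 0 to 24 h of age. Chromatin was sonicated to 200 to 800 bp and precipitated with an anti-GFP antibody. The samples were 2 libraries of 1 group, labelled as biological replicates 3 and 4. Each sample mixed the stages and tissues of 24 h of development, so a peak cannot be assigned to a cell type. No untagged line and no control library was analysed here, so signal that other anti-GFP precipitations would share was not measured.

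CG4282 encodes a zinc finger protein of a family that is large in insects, whose members carry an amino-terminal ZAD domain through which they pair with one another. Several proteins of this family bind insulators, promoters or enhancers. Sequence between fly genes holds enhancers, insulators, Polycomb response elements and unannotated starts. At fly promoters, the DNA replication-related element (DRE), the BEAF-32 site and core promoter elements such as Motif 1 and Motif 7 are common, and they serve below as a contrast to the members.

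Sequences of members are shown for a pair of reasons: 7 hold the word CACAGTGG, found earlier in the optimal peaks of these data (those the authors kept for being reproducible between replicates), and 3 belong to the strongest members and hold no such word. The word is in capitals, and the other bases are in lower case. Each sequence spans 50 bp on either side of the summit, is read 5′ to 3′ on the strand that carries the word (the plus strand where there is none), and comes from the RefSeq copy of the Release 6 assembly (dm6). Genes on either side name each member. Prx1 encodes a peroxiredoxin and Tollo a Toll-like receptor, robo2 a receptor for the guidance cue Slit, bcd the anterior morphogen Bicoid, exex a homeodomain protein of motor neurons, toe and eyg Pax factors, and nAChRalpha7 a subunit of the nicotinic acetylcholine receptor. The first 4 of the 7 overlapped an optimal peak and the other 3 did not.
lncRNA:CR46004 and lncRNA:CR46006 (chr3L:10320908-10321008, minus strand): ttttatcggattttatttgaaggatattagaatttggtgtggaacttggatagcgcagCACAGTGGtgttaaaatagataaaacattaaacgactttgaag
Prx1 and Tollo (chr3L:15234614-15234714, plus strand): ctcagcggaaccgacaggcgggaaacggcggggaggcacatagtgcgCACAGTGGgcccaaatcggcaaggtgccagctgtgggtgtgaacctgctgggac
robo2 and CG43401 (chr2L:1427871-1427971, plus strand): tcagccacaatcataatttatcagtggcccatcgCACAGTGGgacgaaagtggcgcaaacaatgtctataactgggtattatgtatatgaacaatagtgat
bcd and lncRNA:CR45593 (chr3R:6761014-6761114, minus strand): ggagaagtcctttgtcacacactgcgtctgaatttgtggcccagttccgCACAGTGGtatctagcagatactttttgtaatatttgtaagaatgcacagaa
exex and RNaseX25 (chr3L:7953229-7953329, minus strand): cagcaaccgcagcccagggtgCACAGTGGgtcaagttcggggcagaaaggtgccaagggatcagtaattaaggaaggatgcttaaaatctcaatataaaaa
out and nAChRalpha7 (chrX:19323660-19323760, minus strand): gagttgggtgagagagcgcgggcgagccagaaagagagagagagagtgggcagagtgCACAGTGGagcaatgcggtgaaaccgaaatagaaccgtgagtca
toe and eyg (chr3L:12442845-12442945, minus strand): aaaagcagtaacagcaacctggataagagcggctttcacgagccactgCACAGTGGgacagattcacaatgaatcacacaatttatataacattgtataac
COX7AL2 and CG31668 (chr2L:2202380-2202480, plus strand): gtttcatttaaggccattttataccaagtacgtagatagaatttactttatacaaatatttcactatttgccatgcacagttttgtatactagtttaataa
lncRNA:CR45641 and lncRNA:CR45643 (chr3R:16222429-16222529, plus strand): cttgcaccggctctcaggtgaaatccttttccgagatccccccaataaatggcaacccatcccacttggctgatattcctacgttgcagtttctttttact
Sox21a and Sox21b (chr3L:14111582-14111682, plus strand): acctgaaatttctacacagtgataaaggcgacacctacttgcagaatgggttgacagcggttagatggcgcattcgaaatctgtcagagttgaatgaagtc

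The word CACAGTGG lay within 50 bp of the summit in 18 of 439 members, or 4.10% (Wilson 95% interval, 2.61 to 6.39). In windows of the same size beside the members it was present in 3 of 439 centred 500 bp to the lower-coordinate side and in 2 centred 500 bp to the other. Among strong intronic peaks it was in 63 of 1256, or 5.02%, and among strong promoter peaks in 82 of 2873, or 2.85%. Among weak intergenic peaks it was in 42 of 3280, or 1.28%, close to the 1.32% of all 30000 pooled peaks. The word had been found in optimal peaks of these data, so its test used only the 270 members that overlap no optimal peak. Of these, 10 held it at the summit and 1 in the window beside, none of them in both. The two-sided exact McNemar test gave p = 0.0117, and 0.0234 after Benjamini-Hochberg (BH) adjustment over 2 words. The call rested on few sites and was lost under 6 of the alternatives tried, with exact adjusted p values of 0.0771 to 1.00. Ranked without replicate 3 the adjusted exact p was 0.141, and without replicate 4 it was 0.50.

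Of these 18 members, all chosen for a word within 50 bp of the summit, 14 had its centre within 20 bp, and the median distance was 12 bp. The word read on the plus strand in 8 and on the minus strand in 10. The base before it was G in 12 of 18. Past its end, the third base was C in 10, the fifth was A in 11 and the sixth was A in 12. These positions were picked for their high counts from the 4 before the word and the 7 past it. No background of base content was set beside the counts, and a longer motif was not tested. Beside robo2, in the sequence printed above, the bases past the word read gacgaaag, with the commonest letter at each of these places. Beside bcd they read tatctagc, which differs at the third and the fifth. The strongest member with the word lay between lncRNA:CR46004 and lncRNA:CR46006, with a signal of 132 and a rank of 478 in the pooled list. Of the 18, 8 (44.4%) overlapped an optimal peak, against 38.5% of all 439 members. Among the strongest 5000 peaks of both replicates were 8 of the 18 (44.4%), against 56.5% of the 421 members without the word. The member beside bcd held the word 3 bp from its summit. The other earlier word, CAACACTG, was in 3 of 439 members, or 0.683%, against 102 of 2873 strong promoter peaks, or 3.55%. In the 270 members outside the optimal list it was at 0 summits and in 2 windows beside, with an adjusted exact McNemar p of 0.50.

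**Figure D1:**
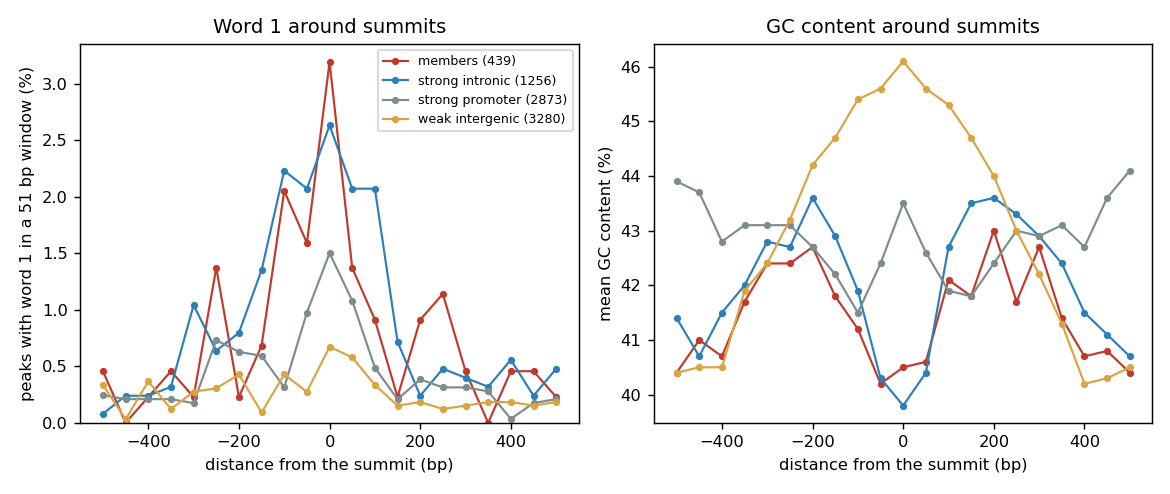
Share of peaks with the word CACAGTGG (word 1) and mean GC content, in windows centred every 50 bp by distance from the summit in bp, for the members, strong intronic, strong promoter and weak intergenic peaks. In the window at the summit the word was in 14 of 439 members (3.19%), and mean GC content was 40.5% in the members against 46.1% in the weak intergenic peaks.

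Summits of the members were poorer in GC than those of the weak intergenic peaks; the values are described without a test. Median GC content in the 101 bp at the summit was 39.6% in the members, against 39.6% in strong intronic peaks, 43.6% in strong promoter peaks and 46.5% in weak intergenic peaks. In the windows 500 bp away, the members had medians of 41.6% and 40.6%, against 41.6% and 40.6% in the weak intergenic peaks. Seen along the profile, mean GC content was 42.7% and 43.0% at 200 bp to either side of the members' summits and 40.5% at the summit. In weak intergenic peaks it was 44.2% and 44.0% at those distances and 46.1% at the summit. Strong intronic peaks had 43.6% and 43.6% at those distances and 39.8% at the summit. Against their flanks at 200 bp, the members and the strong intronic peaks thus both dipped at the summit, where the weak intergenic peaks had a hump. At 500 bp to either side the members' mean was 40.4%, so their summits were no lower than sequence farther out. The part of GC content in the signal was not tested.

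A list of 22 known motifs was searched on both strands in the same windows. No motif passed the two-sided exact McNemar test at the summit against the window beside, in either direction, and 0 of 22 had an unadjusted p under 0.05. Among all pooled peaks, the BEAF-32 core CGATA was in 13.1% of windows, DRE (TATCGATA, which contains that core) in 0.960%, Motif 7 in 1.86% and the E-box CAGCTG in 6.55%. The other motifs spelled in full were the TATA box (CTATAAA or GTATAAA), the initiator (TCANTN, with G or T as the fourth base and C or T as the sixth), the GAGA-factor motif (GAGAGA), the repeat ACACACAC, Zelda (CAGGTAG), Pho (GCCAT), the CTCF core (AGNNGGC, with A or G as the third base and G or T as the fourth), the GATA-factor motif (AGATAA), a homeodomain site (TAATTA), the E-boxes CACGTG and CATATG, Grh (AACCGGTT), Tinman (CACTTGA) and AP-1 (TGACTCA or TGAGTCA). Motif 1, Motif 6, Motif 7, the Su(Hw) core and Mef2 were searched by their published forms. Among all pooled peaks these other motifs were in 0.110% (Grh) to 22.1% (Pho) of windows. A match is a description of the letters, not a bound site.

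Against strong promoter peaks, 4 of 22 motifs were rarer in the members past the adjusted threshold of 0.05. An unadjusted Fisher p under 0.05 was found for 6 motifs, of which Motif 1 and Pho did not pass after adjustment. Motif 1 was rarer in the members (0.228% against 1.67%, adjusted Fisher's exact p = 0.0746). Pho was commoner in them (21.2% against 17.2%, adjusted Fisher's exact p = 0.161). The BEAF-32 core, the site of an insulator protein, was in 54 members (12.3%), against 24.4% of strong promoter peaks, and Fisher's exact test gave an adjusted p of 7.75e-08 (odds ratio 0.435, 95% interval 0.323 to 0.586). DRE, bound by the transcription factor DREF, was in 1 member (0.228%), against 4.87% of strong promoter peaks (odds ratio 0.0446, 95% interval 0.00622 to 0.319, exact adjusted p = 7.17e-07). Motif 7, a core promoter element, was in 4 members (0.911%), against 5.88% (odds ratio 0.147, exact adjusted p = 3.26e-06). The E-box CAGCTG was in 3.42% of the members, against 7.80% (odds ratio 0.418, exact adjusted p = 0.00267). Promoter peaks were marked off by distance to a start, where core promoter elements sit. In strong intronic peaks the shares of these 4 motifs, in the same order, were 11.1%, 0.239%, 1.35% and 4.54%. In weak intergenic peaks they were 9.70%, 0.213%, 0.793% and 4.66%. The members thus lay near both other classes, and promoter peaks stood apart.

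Against strong intronic peaks, 0 of 22 motifs passed the adjusted Fisher's exact test and 1 had an unadjusted p under 0.05. That was GAGA, a site of the GAGA factor, in 4.56% of the members and 7.32% of intronic peaks. Against weak intergenic peaks, 0 of 22 passed and 2 had an unadjusted p under 0.05. The CTCF core, the site of an insulator protein, was in 7.06% of the members and 4.24% of weak intergenic peaks, with an adjusted Fisher's exact p of 0.231. The TATA box was in 4.10% and 2.35%. Words of 6 bases chosen on some arms and tested on the others gave 0 of 10 past the adjusted exact McNemar threshold and 1 with an unadjusted p under 0.05, CTATAA, which was lower at summits (adjusted p = 0.0522).

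**Figure D2:**
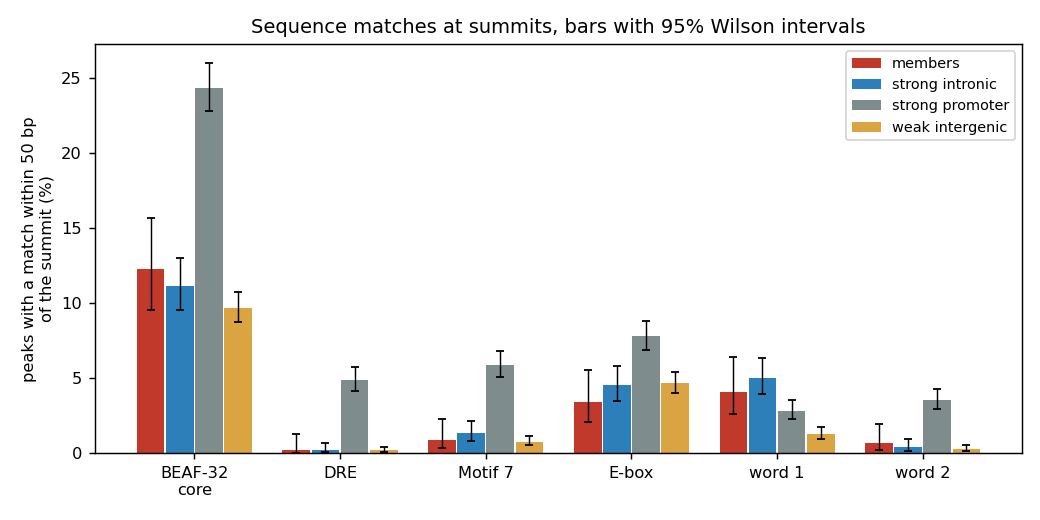
Share of peaks with a motif in the 101 bp at the summit, in percent, for the members, strong intronic, strong promoter and weak intergenic peaks, with Wilson 95% intervals. The E-box is CAGCTG, word 1 is CACAGTGG and word 2 is CAACACTG. The BEAF-32 core was in 12.3% of the members, against 24.4% of strong promoter, 11.1% of strong intronic and 9.70% of weak intergenic peaks.

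The signal that chose the members ran from 43.4 to 487 in the pooled list, with a median of 58.4 and quartiles of 48.8 and 80.1. The weakest member ranked 4999 (signal 43.4), and the strongest intergenic peak outside the choice ranked 5016 (43.3). Strong intronic peaks had a median of 59.4 and strong promoter peaks one of 63.3. The members were spread evenly over the ranking, with 78, 88, 90, 92 and 91 of them in the 5 successive bands of 1000 ranks. These values are a description, since signal made the choice.

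The strongest member lay between Su(z)2, a gene related to the Polycomb group gene Psc, and CG13323, on 2R from 13035207 to 13035440. Its signal was 487, and it ranked 15 in replicate 3 (signal 229) and 26 in replicate 4 (258). Its summit was 11916 bp from the nearest TSS. The second lay between COX7AL2, which encodes a cytochrome c oxidase subunit of the 7A type, and CG31668, on 2L from 2202277 to 2202574. It had a signal of 484 and ranked 36 in replicate 3 (185) and 14 in replicate 4 (299). The third, between the non-coding genes lncRNA:CR45641 and lncRNA:CR45643 on 3R, had a signal of 469.7 and ranked 24 in replicate 3 (202) and 23 in replicate 4 (266). These 3 stood well above the rest, since the fourth, between CG3149 and lncRNA:CR42794 on X, had a signal of 278.

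The other members of the strongest 12 lay by genes of several kinds. One with a signal of 237 was between ph-d and ph-p, the paired Polyhomeotic genes of the Polycomb group, and ranked 230 in replicate 3 (79.0) and 97 in replicate 4 (153). One with a signal of 266 was between blw, which encodes a subunit of the mitochondrial ATP synthase, and CycB, a mitotic cyclin. The one with a signal of 262 lay between CG14762 and the microRNA gene mir-4981. The member between the homeobox gene C15 and sp3 had a signal of 239.5. A further one, of signal 211, lay beyond lncRNA:CR45643 towards tara. The lowest signals of the 12 were 196 between lncRNA:CR44363 and CG7560, 188 between lncRNA:CR45411 and lncRNA:CR43785, and 183 between Sox21a and Sox21b, which encode Sox transcription factors. Of the 12, 6 had a non-coding gene on at least 1 side, counting mir-4981. Long non-coding RNA genes alone lay beside 42.4% of all 439 members. None of the 12 held CACAGTGG, DRE or the BEAF-32 core, which were in 4.10%, 0.228% and 12.3% of all members. The CTCF core was in 2 of the 12, against 7.06% of all members. These counts over 12 members are a description and were not tested. All 12 had a rank of 338 or better in replicate 3 and 284 or better in replicate 4.

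Agreement between the replicates was much as in the strongest pooled peaks as a whole. The pooled signal that chose both sets holds both replicates, so the shares that follow are a description. A member was given, in each replicate, the value of the strongest peak it overlapped by at least 1 bp. That peak had its summit within 100 bp of the member's in 377 of 429 members in replicate 3 and in 393 of 431 in replicate 4, and in the rest it can be a neighbour. Of the 439 members, 343 (78.1%) overlapped one of the strongest 5000 peaks of replicate 3, against 73.2% of all 5000 strongest pooled peaks. For replicate 4 it was 331 (75.4%), against 80.6%. Both held for 246 members (56.0%), against 57.3% of all 5000, and for 56.0% of the strong intronic and 63.8% of the strong promoter peaks. A further 97 members (22.1%) were strong in replicate 3 only, against 15.9% of all 5000, and 85 (19.4%) in replicate 4 only, against 23.3%. In neither were 11 (2.51%), against 3.50%. In exactly 1 replicate the shares were 41.5% of the members and 39.2% of all 5000. No member lacked a peak in both replicate lists, and 10 lacked one in replicate 3 and 8 in replicate 4. Shares were lower when the other replicate alone did the ranking. Of 412 members ranked without replicate 3, 60.2% were strong in it. Of 500 ranked without replicate 4, 49.8% were strong in that one. These last shares have no like share over all strong peaks beside them, so they do not set the members apart.

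The optimal list is the authors' set of peaks that the irreproducible discovery rate (IDR) method kept from the relaxed lists. It was overlapped by 169 of 439 members, or 38.5% (Wilson 95% interval, 34.1 to 43.1), against 42.0% of the 5000 strongest pooled peaks. Of these 169 members, 160 (94.7%) were strong in both replicates. Of the other 270, 86 (31.9%) were. The overlap and both shares follow largely from how the lists were made. The optimal list held 1985 peaks, and 164 of the 439 members were optimal peaks themselves. With few exceptions, members that overlap an optimal peak were those highest in pooled signal, the value that chose the members. Both shares thus set stronger members against weaker ones and are a description. Over the 421 members with a peak in each replicate, 217 (51.5%) ranked better in replicate 3, against 46.8% of the strongest pooled peaks with a peak in each. Ranks more than 5-fold apart were found in 48 (11.4%), against 12.6%. The intervals cover counting error over peaks, and peaks of 1 library are not independent replicates.

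**Figure D3:**
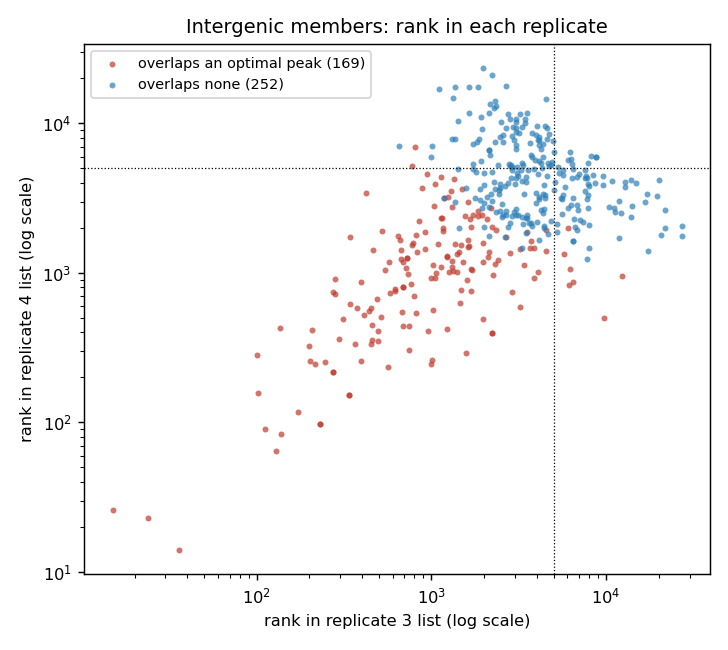
Rank of the strongest overlapping peak in replicate 3 (x axis) and replicate 4 (y axis) for each member with a peak in both, on log axes, in red for the 169 that overlap an optimal peak and in blue for the others. Dotted lines mark rank 5000. Of the 169 members that overlap an optimal peak, 160 lay within the strongest 5000 of both replicates, against 86 of the other 270. Overlap with an optimal peak largely follows pooled signal, so this contrast is a description.

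Among members with a peak in both replicate lists, those that differed most had pooled signals of 46.8 to 87.8. Members with no peak in 1 of the lists were not ranked for this. A pair in the gap between hng3 and tRNA:Ile-TAT-1-1 on 3L had ranks of 1098 and 1357 in replicate 3, with 16905 and 17444 in replicate 4. Their replicate 3 signals were 37.5 and 33.6, and their replicate 4 signals 20.1 and 19.8. A member 5325 bp upstream of ptc, which encodes the Hedgehog receptor, ranked 1983 in replicate 3 (27.2) and 23460 in replicate 4 (17.4). In the other direction, the member between bcd and lncRNA:CR45593 ranked 9707 in replicate 3 (11.7) and 502 in replicate 4 (77.5). Its nearest TSS was that of Ama, which encodes a cell adhesion protein. Members between lncRNA:CR43622 and CG33467, and between lncRNA:CR43434 and tx, had ranks of 27153 and 27122 in replicate 3, with 1754 and 2062 in replicate 4. What set the replicates apart at these sites was not tested.

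Members lay nearer to starts than weak intergenic peaks did, in a description without a test. The members' summits lay at a median of 2218 bp from the nearest TSS (quartiles 1076 and 4838), against 3517 bp in weak intergenic peaks (1619 and 7030.2). Within 1000 bp of a TSS were 101 members (23.0%, Wilson 95% interval 19.3 to 27.2), against 12.1% of weak intergenic peaks. More than 5000 bp away were 24.1% of the members and 36.9% of the weak intergenic peaks, and more than 10000 bp away 8.66% and 14.4%. Members also lay in shorter gaps between genes, with a median over peaks of 8156 bp, against 12311 bp. A gap with several peaks was counted once for each of them. Shares upstream of the nearest TSS were 64.9% and 60.2%. The rule left out summits within 500 bp of a TSS and all those inside gene bodies. Sequence just downstream of a start was thus mostly barred, which bears on the shares upstream.

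**Figure D4:**
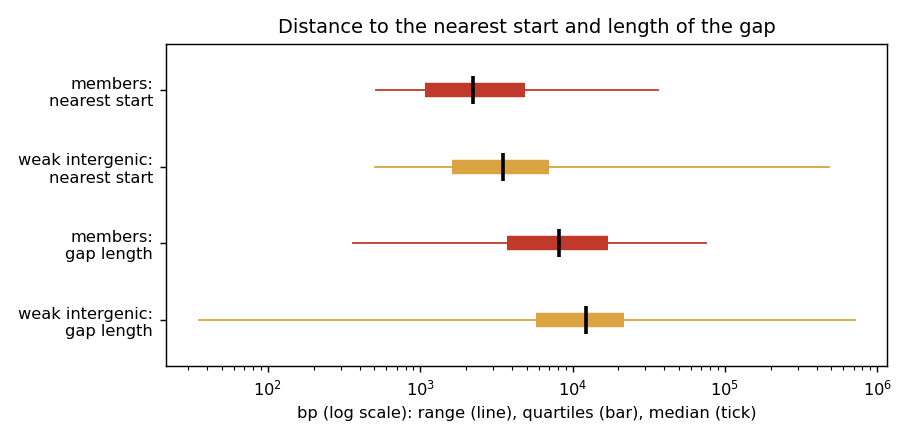
Distance from the summit to the nearest TSS (upper pair) and length of the gap between genes that holds the summit (lower pair), in bp on a log axis, for the members and the weak intergenic peaks. Lines are ranges, bars are quartiles and ticks are medians, which for distance were 2218 bp in the members and 3517 bp in the weak intergenic peaks, and for gap length 8156 bp and 12311 bp.

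The 3 members farthest from any TSS lay in 1 gap of 75047 bp between NijA, which encodes a ninjurin cell surface protein, and CG43245 on 3L. They were 36597, 35146 and 32840 bp from the nearest TSS, with signals of 46.5, 50.9 and 69.5. Of these 3, the last overlapped an optimal peak. At the other end, 4 of the 96 members in convergent gaps lay in gaps shorter than 500 bp.

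Peaks that share a gap share its type and arm, so p values of tests over single peaks can be too small; each gap was therefore also counted once, by its strongest peak, an alternative chosen after seeing the data. The type of gap passed the threshold in neither count. Divergent gaps, with both genes read away from it, held 124 members (28.2%), against 25.6% of weak intergenic peaks, with an adjusted p of 0.603 in Fisher's exact test (odds ratio 1.14, 0.916 to 1.43). Convergent gaps held 21.9% and 23.8% (odds ratio 0.894, 0.703 to 1.14, exact adjusted p = 0.603), and tandem gaps 49.9% and 50.5%. The nearest TSS belonged to a protein-coding gene for 305 members (69.5%), against 66.2% (odds ratio 1.16, 0.936 to 1.44, exact p = 0.178). With each gap once, the odds ratio for divergent gaps was 1.29 (337 gaps with a member, exact adjusted p = 0.178), and that for a coding nearest TSS was 1.34 (exact p = 0.0349). The divergent call depended on the limits: the odds ratio was 1.27 beyond 250 bp from a TSS (exact adjusted p = 0.0251) and 1.32 with protein-coding genes only (exact adjusted p = 0.00738), but 0.985 beyond 1000 bp (exact adjusted p = 1.00). Summits inside an annotated transposable element were rare, at 5 members (1.14%) and 1.07% of weak intergenic peaks (odds ratio 1.07, 0.416 to 2.74, exact p = 0.806). The strongest pair of these lay in INE-1 elements, 694 bp from the TSS of ed, which encodes the adhesion protein Echinoid (signal 76.2), and 1535 bp from that of C1GalTA, a glycosyltransferase gene (70.0).

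The arms held the members in unequal numbers, with 92 on 2L, 70 on 2R, 135 on 3L, 89 on 3R, 8 on chromosome 4 and 45 on X. The small chromosome 4 held 1.82% of the members, against 0.427% of weak intergenic peaks, with an adjusted p of 0.0151 over 6 arms in Fisher's exact test (odds ratio 4.33, 1.81 to 10.4). That call rested on 8 members in 5 gaps. With each gap once the odds ratio was 2.97 (exact adjusted p = 0.198). Each gap once gave 2.37 with the 250 bp limit (exact adjusted p = 0.344) and 2.29 with protein-coding genes only (exact adjusted p = 0.733). The call was also lost under 4 other alternatives and without either replicate. The odds ratio was 2.58 without replicate 3 (exact adjusted p = 0.296) and 2.35 without replicate 4 (exact adjusted p = 0.242). Arm 3L held 30.8% of the members and 26.9% of weak intergenic peaks (exact adjusted p = 0.294), and 17.0% of the strong intronic peaks. X held 10.3% of the members and of the weak intergenic peaks, and 20.8% of the strong intronic peaks. Intron length on each arm was not measured, so the contrasts with intronic peaks do not allow for the sequence open to each class. Per Mb that the rule could pick, the members numbered 32.6 on chromosome 4, 14.9 on 3L, 13.7 on 2L, 11.6 on 3R, 9.40 on 2R and 8.47 on X. The value for chromosome 4 rests on 8 members in 0.245 Mb. Weak intergenic peaks per Mb were fewest on chromosome 4, at 57.1, against 63.8 on X to 103 on 2L.

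**Figure D5:**
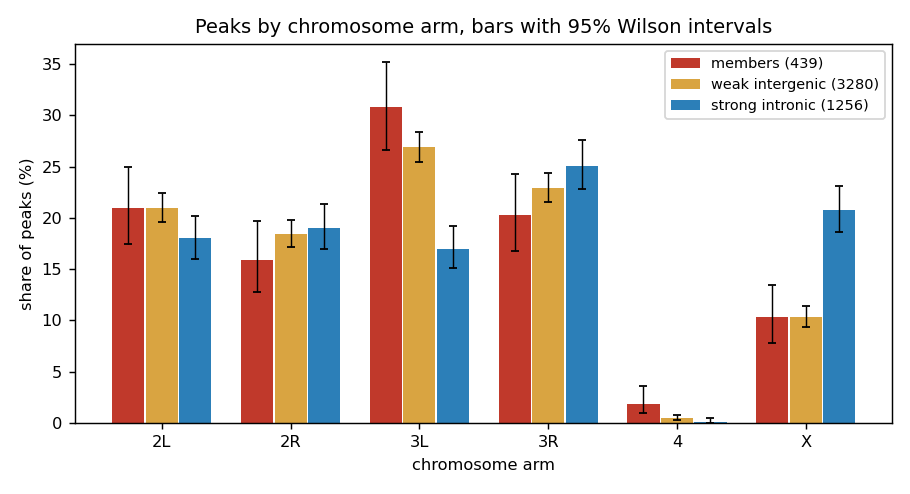
Share of the peaks on each chromosome arm, in percent, for the members, weak intergenic and strong intronic peaks, with Wilson 95% intervals. Chromosome 4 held 1.82% of the members against 0.427% of the weak intergenic peaks, and X held 10.3% of the members against 20.8% of the strong intronic peaks. Shares do not allow for the length of sequence open to each class of peak.

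On chromosome 4, 7 of the 8 members lay in divergent gaps, which were 4 gaps in all, against 7 of the 14 weak intergenic peaks, in 3 gaps. The strongest, with signals of 179.6 and 164.0, lay by lncRNA:CR43437 and between Asator, which encodes a kinase, and zfh2, a zinc finger homeobox gene. Others lay between fuss and toy (69.1 and 46.8) and between myo, which encodes a ligand of the TGF-beta family, and ey (50.5). Both toy and ey encode Pax6 proteins of eye development. The 1 member in a convergent gap lay between asRNA:CR43957 and the ribosomal protein gene RpS3A (49.8).

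The members fell in 337 gaps between genes, of which 272 held 1 member, 47 held 2 and 18 held 3 or more. Counts of members near one another are a description without a test. Some neighbours overlap, as do those of signal 111 and 66.9 between lncRNA:CR44363 and CG7560, which were given the same replicate peaks. A single site may thus count more than once. A neighbouring member lay within 5000 bp for 143 (32.6%), a share with no like value for other peaks beside it. Another of the strongest 5000 peaks lay within 5000 bp for 239 (54.4%), against 63.9% of the strong intronic peaks. The highest number in 1 gap was 7, reached in a pair of gaps, between tRNA:Ile-TAT-1-2 and CG13898, with signals of 49.7 to 96.7, and between lncRNA:CR44363 and CG7560, with signals of 49.5 to 196. Both are on 3L. Joined at steps of up to 20000 bp, members formed 11 runs of at least 5, which held 77 of them. The run from hng3 to lncRNA:CR43883 held 11 members over 57.2 kb, all 11 among the strongest 5000 of replicate 3 but 6 among those of replicate 4, with median ranks of 1304 and 3546. The run from CG44362 to CG12289 held 11 over 46.4 kb, of which 8 were strong in replicate 3 and 10 in replicate 4. On 2L, 8 members lay by RFeSP, lncRNA:CR44603 and chinmo, a gene of neuronal timing, with signals of 43.7 to 169.

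Genes of embryonic patterning were among the neighbours of the members, and their shares were not tested against the weak intergenic peaks. A gene of the Hox and segmentation list lay on either side of 17 members (3.87%), against 3.41% of weak intergenic peaks. They included a member between slp1 and slp2, pair-rule genes (124), and one near oc, a head gap gene (77.7). The Notch, Wnt and BMP signalling list had 8 (1.82%), against 0.823%. A pair between E(spl)m6-BFM and E(spl)m7-HLH, Notch targets, had signals of 142 and 69.0, and 3 members between Wnt4 and wg, which encode Wnt ligands, had signals of 59.7, 57.6 and 52.0. The neural list had 9 (2.05%), against 1.52%, among them 4 beside robo2, with signals of 114, 88.9, 50.1 and 45.2. The muscle list had 7 (1.59%), against 0.762%, including 3 in the gap beside Doc2, a T-box gene of heart and amnioserosa (88.8, 66.5 and 55.4).

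Housekeeping and non-coding neighbours were counted in the same way. Ribosomal protein genes lay beside 6 members (1.37%), against 0.518% of weak intergenic peaks, and transfer RNA genes beside 16 (3.64%), against 2.50%. An insulator protein gene, mod(mdg4), lay beside 1 member (0.228%), against 0% of weak intergenic peaks. Genes for snRNA or snoRNA lay beside 1 (0.228%), against 0.518%. Long non-coding RNA genes lay beside 186 members (42.4%), against 47.6%. The nearest TSS was that of a non-coding RNA gene for 119 members (27.1%), against 30.9%. These lists were not tested, since peaks that share a gap also share its genes.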

How the data were processed

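The authors' deposited peak lists held, for each library and for both pooled, relaxed peaks with background and, from these, an optimal list made by IDR, per the deposited file listing. The deposited signal per peak is the authors' measure of enrichment. Depth and caller set its scale, so it was compared only within a list. The deposited summit offset (another column, in bp) gave each summit. Which aligner and peak caller were run, and at which IDR cutoff, is not given in the sources used here. Depth is unknown. All coordinates are dm6 and 1-based, and copies of the lists in dm3 were not used.

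Genes came from Ensembl release 115 (BDGP6.54), with 18164 genes used and 5809 transposable elements left out. Two-sided Fisher's exact tests compared peaks, and exact McNemar tests compared a summit with the window 500 bp to its lower-coordinate side, each with BH adjustment within its family taking 0.05 as the threshold. Woolf 95% intervals are given for odds ratios, with 0.5 added where a cell was 0. Shares have Wilson 95% intervals. Both cover counting error over peaks only. With 1 group there was no test between samples. Nothing in the labels says beyond their replicate numbers that the libraries came from separate collections.

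The members, motifs, gene lists and both words of 8 bases were chosen with earlier results of these data known. Named members were the 12 strongest, the 3 farthest from a TSS, the 3 ranked farthest apart in each direction, the strongest 2 in transposable elements and the strongest with a word that passed. Other named members were chosen after their values were seen. Scripts used Python 3.11.15, pandas 2.3.3, numpy 2.4.6 and scipy 1.17.1, and the tests were checked on simulated data.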

Additional observations from a re-analysis of the deposited data

How the results depend on the processing

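Over 17 alternatives, 203 of 281 values kept their direction and call or moved little, and 11 changed direction, none of them past the threshold on either side of the change. Members numbered 256 with the strongest 3000 pooled peaks, 725 with the strongest 8000 and 169 when they had to overlap an optimal peak. Ranked without one replicate, they numbered 412 to 500. The share strong in replicate 3 was 72.6% with the strongest 8000, 95.9% with optimal peaks only and 60.2% without replicate 3; that in replicate 4 was 98.8% with optimal peaks only and 49.8% without replicate 4. The share that overlapped an optimal peak was 64.8% with the strongest 3000, 24.1% with the strongest 8000, 100% by construction with optimal peaks only, 43.8% beyond 250 bp from a TSS, and 32.6% to 41.5% without one replicate. Against strong promoter peaks, 7 motifs differed with the strongest 8000 and 9 with a window 100 bp either side. Against weak intergenic peaks 1 differed beyond 250 bp, and against intronic peaks 1 with the 100 bp window. Beyond 250 bp from a TSS, odds ratios past the threshold of exact tests were 1.27 for divergent gaps, 0.748 for convergent gaps and 1.35 for a coding nearest start; with protein-coding genes only, that for divergent gaps was 1.32. Counting each gap once, chosen after seeing the data, gave 1.34 for a coding nearest start; with the 250 bp limit as well it gave 1.40, 0.668 and 1.60 for these 3 features, and with protein-coding genes only 1.41 for divergent gaps. Directions changed for divergent gaps beyond 1000 bp (0.985), and for convergent gaps beyond 1000 bp (1.01), with protein-coding genes only (1.05) and with each of their gaps once (1.01). The odds ratio for transposable elements was 0.840 with protein-coding genes only, 0.493 to 0.898 without one replicate, and 0.781, 0.798 and 0.563 with each gap once, alone, with the 250 bp limit and with protein-coding genes only. The difference for CAACACTG, summit minus beside, was 0.593 percentage points without replicate 4, against -0.741 in the report's setting. The number of arms that differed was 0 with the strongest 3000 or 8000, optimal peaks only, protein-coding genes only, each gap once (alone or with either limit) and without either replicate (0 to 0), and 2 beyond 1000 bp, where 3L joined chromosome 4. The number of earlier words that passed was 0 with the strongest 3000, without either replicate (0 to 0), with a window 25 bp either side, and with the window beside placed 500 bp above or 1000 bp below. Of the 6-base words, 3 passed with the 100 bp window and 1 with the window 500 bp above. The causes of these changes were not tested. A coding nearest start with protein-coding genes only, and transposable elements counted as gene bodies, are fixed by construction and gave no value. With optimal peaks only, the earlier words had no members left to test, and a replicate's own share had no value when the other one was left out. No paired analysis was possible because the libraries form 1 group. Depth is unknown, so no limit of detection could be set, and 2 libraries without a control list leave the noise at a single site unmeasured.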
